A study of Mus musculus with 15 samples.

Results

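Scavenger receptors are the surface proteins through which macrophages take up modified lipoproteins, dead cells and particles. The set described here holds 9 mouse genes: Olr1, Scarb1, Cd36, Msr1, Marco, Cd163, Cxcl16, Vldlr and Lrp1. A gene was taken as measured where a probe of the array was annotated to its symbol and to no other, and each of the 9 genes had 1 such probe. These 9 genes were among 13273 features tested, 10811 of which carried a gene symbol. Total RNA of alveolar macrophages, the resident macrophages of the air spaces, was compared on 15 spotted arrays, 5 per group, each against a common macrophage reference RNA. All 3 groups had received doxycycline, named Dox in the labels: wild type (b6+/+), beta6 null (b6-/-, lacking the integrin beta6 subunit) and beta6 null with TGFb1 (b6-/-TGFb+/+). The labels give neither the age of the mice nor the promoter or cell type that drives TGFb1, and no wild type group with TGFb1 was included. Nothing in them says that the arrays of a group are separate animals, so each p-value reflects only how much these samples vary, and that variation may be technical.

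The integrin alpha v beta6 of epithelial cells is known to release active TGF-beta from its latent complex. In the lung, macrophages clear surfactant lipid and debris, and scavenger receptors serve in that uptake beside the nuclear receptors and transporters that handle the lipid taken up. Olr1 encodes LOX-1, a C-type lectin receptor for oxidised LDL. Scarb1 encodes SR-BI, the HDL receptor, and Cd36 a receptor for oxidised LDL and long-chain fatty acids. Msr1 and Marco are class A scavenger receptors, Cd163 takes up haptoglobin-haemoglobin complexes, Cxcl16 is a membrane chemokine that also binds oxidised LDL, and Vldlr and Lrp1 belong to the LDL receptor family.

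Values are log2 ratios of sample over reference, centred on the median of each array, so a value is a level relative to the reference RNA and levels of different genes are not set against each other. The deposited table states neither its log base nor its direction. Base 2 and sample over reference were taken as likely, because the reference is the first channel of each array and Mmp12, the macrophage elastase known to be raised in beta6 null lungs, lay 4.31 above its wild type level in the beta6 null group (SE 0.42, limma adjusted p = 0.000183). With the opposite direction every sign below would turn. Arrays held between 11590 and 16457 values, and the SD of an array's ratios ran from 0.841 to 2.01. The widest were those of replicate 2 in wild type and replicate 1 in beta6 null. The number of arrays limits the precision, and in whole-cell RNA fewer cells of a type and less RNA per cell cannot be told apart.

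The Olr1 promoter is shown because Olr1 had the largest differences of the set in both comparisons with beta6 null, and that of Cd36 because its mean lay on the other side in the same comparisons. RefSeq windows of GRCm38.p6, from 250 bases before to 50 after the start site, were matched for 6 of the 9 genes: Olr1, Cd36, Marco, Cd163, Vldlr and Lrp1. Capitals mark matches, on either strand, to the motifs searched: GTCTG (SMAD element), TGANTCA (AP-1), AGGTCA (nuclear receptor site), GAGGAA (PU.1 core), GGGCGG (SP1 box), TGACNNNGC (NRF2 and MAF core) and TATAAA. The windows are chr6:129507116-129507415 and chr5:17835847-17836146, both on the minus strand and printed 5′ to 3′ along the gene.
Olr1: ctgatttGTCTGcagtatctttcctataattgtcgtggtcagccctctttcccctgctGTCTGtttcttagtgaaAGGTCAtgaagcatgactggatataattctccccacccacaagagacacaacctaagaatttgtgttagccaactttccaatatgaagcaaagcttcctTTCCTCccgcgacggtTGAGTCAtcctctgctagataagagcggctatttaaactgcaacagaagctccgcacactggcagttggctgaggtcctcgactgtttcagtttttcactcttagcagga
Cd36: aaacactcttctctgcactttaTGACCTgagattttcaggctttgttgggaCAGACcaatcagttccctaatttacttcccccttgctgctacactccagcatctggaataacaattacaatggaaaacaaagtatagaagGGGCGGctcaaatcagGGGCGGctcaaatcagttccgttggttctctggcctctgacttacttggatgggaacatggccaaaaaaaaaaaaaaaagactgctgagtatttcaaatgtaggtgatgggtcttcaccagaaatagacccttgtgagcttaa
In the Olr1 window GTCTG began 243 and 192 bases before the start, GAGGAA on the opposite strand 76 before and TGANTCA 60 before, with AGGTCA between GTCTG and GAGGAA and no overlap among them. GTCTG was in 49.6% of the 32817 windows of this length, AGGTCA in 16.3%, GAGGAA in 28.3% and TGANTCA in 7.81%. The other motifs searched were in 35.6% (GGGCGG), 12.4% (TGACNNNGC) and 13.6% (TATAAA) of windows. A match describes the letters of the window and nothing about binding.

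Olr1 was far lower in beta6 null macrophages and, with TGFb1, overlapped the wild type arrays again. In wild type replicates 1 to 5 its log2 ratio was -0.52, -0.21, -0.01, -0.96 and 0.13. In beta6 null replicates 1 to 5 it was -3.55, -2.65, -3.28, -3.96 and -3.42. With TGFb1 it was -0.56, -1.11, -0.16, -0.08 and -0.74. All beta6 null arrays lay below all others, with a gap of 1.69 to the wild type and 1.54 to the TGFb1 arrays. Group means were -0.31 ± 0.44, -3.37 ± 0.48 and -0.53 ± 0.42 (SD, n = 5 each). Olr1 fell by 3.06 in beta6 null against wild type (SE 0.31, 95% interval -3.72 to -2.39), which is 8.32-fold lower, with a limma adjusted p = 0.000183 over all 13273 features. It rose by 2.84 with TGFb1 against beta6 null (SE 0.31, 95% interval 2.17 to 3.51), 7.15-fold, with a limma adjusted p = 0.00114, the smallest p of all features in that comparison. Against wild type, the group with TGFb1 differed by -0.22 (95% interval -0.89 to 0.45, limma adjusted p = 0.920). Both differences passed the threshold without any 1 of the 15 arrays. For any gene, leaving out an array of the group not compared keeps the difference and changes only its SE and adjusted p. Neither passed with the level of Xist, the X-inactivation RNA of female cells, as a covariate: -3.41 with adjusted p = 0.124, and 3.18 with adjusted p = 0.232, in limma. The rise with TGFb1 also missed it under quantile normalization (2.42, limma adjusted p = 0.0794) and after scaling every array to 1 common SD (2.51, limma adjusted p = 0.0593).

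Scarb1 had the same order of groups at a smaller size. Its log2 ratio was 0.35, 0.81, 1.10, 0.54 and 0.57 in wild type replicates 1 to 5. In beta6 null it was -0.56, -0.69, -0.55, -0.42 and -0.28, and with TGFb1 -0.10, 0.69, 0.58, 1.07 and 0.92. Every beta6 null array lay below every other array, with gaps of 0.63 to wild type and 0.18 to the TGFb1 arrays. Scarb1 fell by 1.18 in beta6 null against wild type (SE 0.26, 95% interval -1.73 to -0.62), 2.26-fold lower, with a limma adjusted p = 0.0455. That call is near the threshold: it passed in 5 of 27 alternative settings, and of the 15 fits without 1 array only in that without TGFb1 replicate 1. The adjusted p over the alternatives ran from 0.00845 to 0.604, and the difference from -1.26 to -1.04. The difference of TGFb1 against beta6 null was 1.13 (SE 0.26, 95% interval 0.58 to 1.69), with a limma adjusted p = 0.0605, and it passed in 5 of 27 alternatives (adjusted p from 0.00538 to 0.550). Against wild type it was -0.04 (95% interval -0.60 to 0.51).

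**Figure D1:**
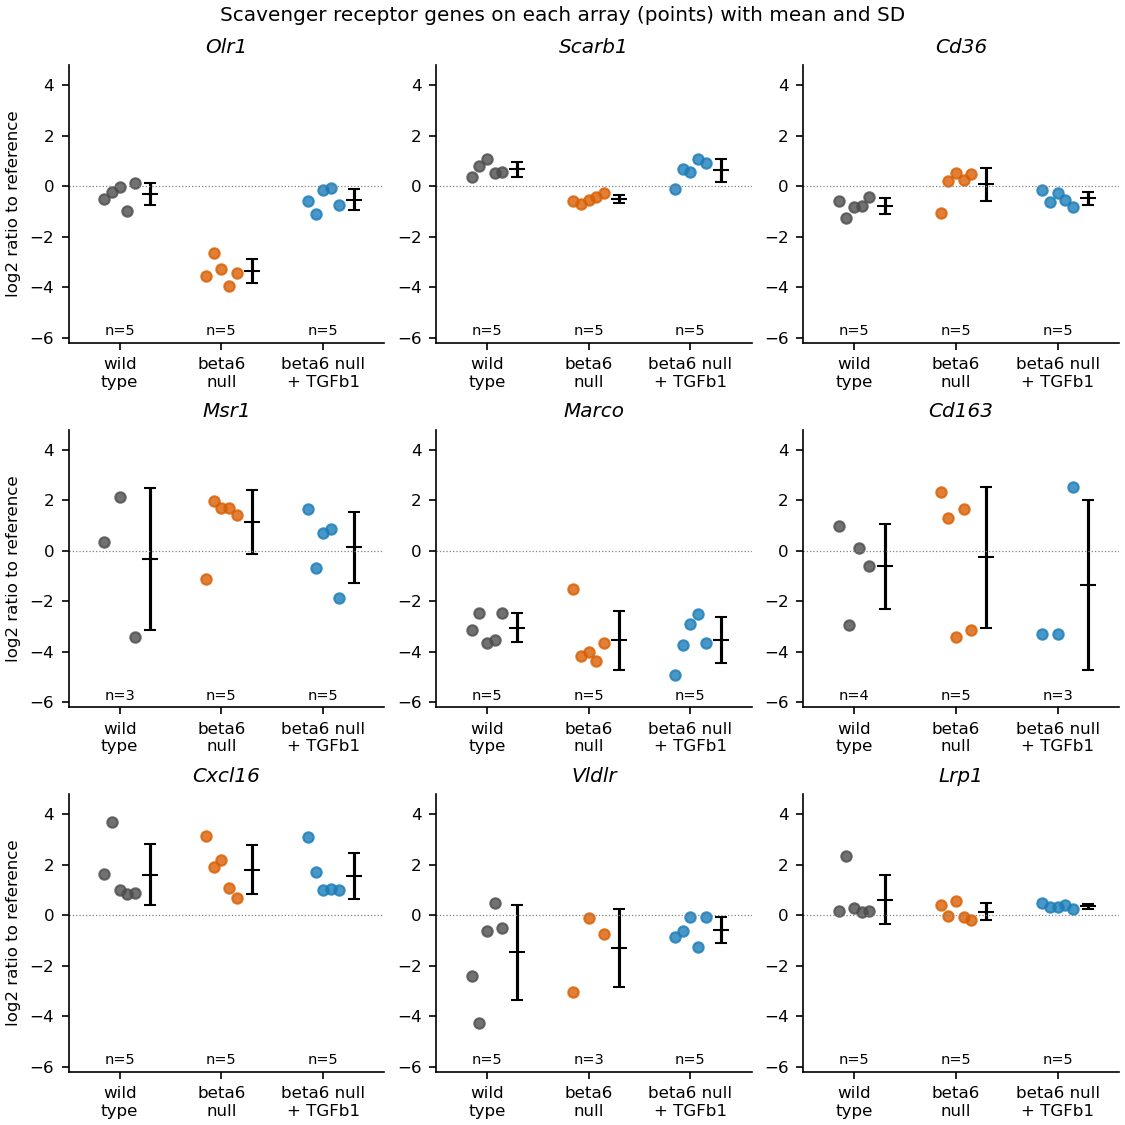
The log2 ratio to the reference of each of the 9 genes on every array, by group, with points for arrays and bars for the group mean and SD. Olr1 and Scarb1 are the genes whose beta6 null arrays lie below all wild type arrays.

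Cd36 had its highest mean in beta6 null. Wild type replicates 1 to 5 had log2 ratios of -0.58, -1.25, -0.83, -0.77 and -0.44. Those of the beta6 null arrays were -1.05, 0.22, 0.55, 0.26 and 0.47, and those with TGFb1 -0.15, -0.64, -0.27, -0.54 and -0.82. In beta6 null, 4 of 5 arrays lay above every other array, and replicate 1, on 1 of the 2 widest arrays, lay below all but 1 of them. The difference of beta6 null against wild type was 0.86 (SE 0.31, 95% interval 0.19 to 1.53, limma adjusted p = 0.281). Without beta6 null replicate 1 it was 1.15 (limma adjusted p = 0.0333), without both of the widest arrays 1.03 (0.0265), and with arrays weighted by their quality 0.99 (0.00842). These were the only 3 of 27 alternative settings in which it passed. Over all 27 the difference ran from 0.53 to 1.15, with a limma adjusted p of up to 0.821. TGFb1 against beta6 null gave -0.57 (95% interval -1.24 to 0.10, limma adjusted p = 0.414), and -0.86 without the 2 widest arrays (limma adjusted p = 0.0414). It passed in 2 of 27 alternatives, over which it ran from -0.90 to -0.24.

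**Figure D2:**
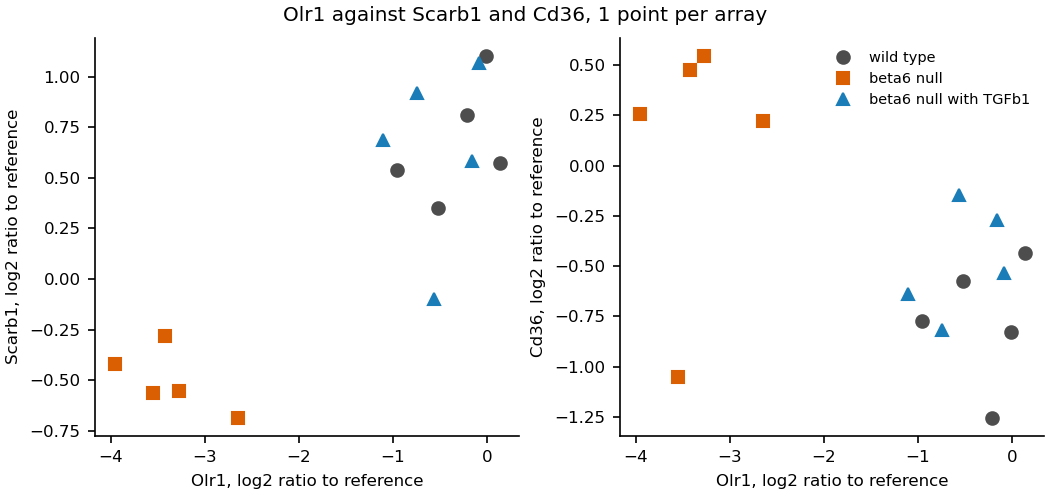
Scarb1 (left) and Cd36 (right) against Olr1, each axis a log2 ratio to the reference, with 1 point per array and the 3 groups by colour and shape. The 5 beta6 null arrays hold the lowest Olr1 values, from -3.96 to -2.65.

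Like Cd36, the other 6 receptors did not pass the test in any comparison in the reported setting. The 2 class A receptors had wide groups. Msr1 had 13 values, 3 of them wild type, and its means were -0.31 ± 2.82 (SD, n = 3) in the wild type, 1.14 ± 1.27 (SD, n = 5) in the beta6 null and 0.14 ± 1.41 (SD, n = 5) in the TGFb1 group. Marco was low against the reference in every group, at -3.04 ± 0.56, -3.54 ± 1.17 and -3.54 ± 0.93 (SD, n = 5), and beta6 null against wild type differed by -0.50 (SE 0.55, limma adjusted p = 0.757), and by -1.01 without beta6 null replicate 1 (limma adjusted p = 0.438). Cd163, measured on 12 arrays, spread from -3.41 to 2.32 among the beta6 null arrays alone, and its difference from wild type, 0.35 (SE 1.55), ran from -0.43 to 1.13 with 1 array left out. Cxcl16 differed by 0.20 (SE 0.61) between beta6 null and wild type, by -0.13 without beta6 null replicate 1 and by 0.72 without wild type replicate 2. Vldlr, with 13 values, 3 of them beta6 null, differed by 0.16 (SE 0.94), and by -0.54 without wild type replicate 2 and 0.64 without wild type replicate 4. Lrp1 differed by -0.48 (SE 0.38), and its highest value, 2.35, was on wild type replicate 2, without which the difference was -0.05. The fits used only the arrays on which a probe had a value.

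Over the whole table, 126 features passed between beta6 null and wild type (0.949%), 78 of them lower in beta6 null (0.588%), and 2 of the 9 receptors did, both lower. With TGFb1 against beta6 null 94 passed (0.708%), 77 of them higher (0.58%), and 1 receptor did, Olr1. With TGFb1 against wild type limma called 0 features (0%) and 0 receptors. At an unadjusted p under 0.05 the 3 comparisons held 1523 (11.5%), 1986 (15%) and 833 (6.28%) of all features, and 3, 2 and 0 of the 9 receptors. Under quantile normalization the calls split into 39 higher and 36 lower between beta6 null and wild type, against 48 and 78 otherwise, and into 8 and 7 with TGFb1, against 77 and 17. Arrays of the groups did not overlap for 5.12%, 8.26% and 2.88% of features in the 3 comparisons, and for 2, 2 and 0 of the 9 receptors. The median difference over the 9 receptors was 0.16, 0.004 and -0.05, and over all features -0.05, 0.12 and 0.07. The comparisons share groups, and the genes were chosen with earlier results of these data known, so the shares describe the set and do not test it.

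**Figure D3:**
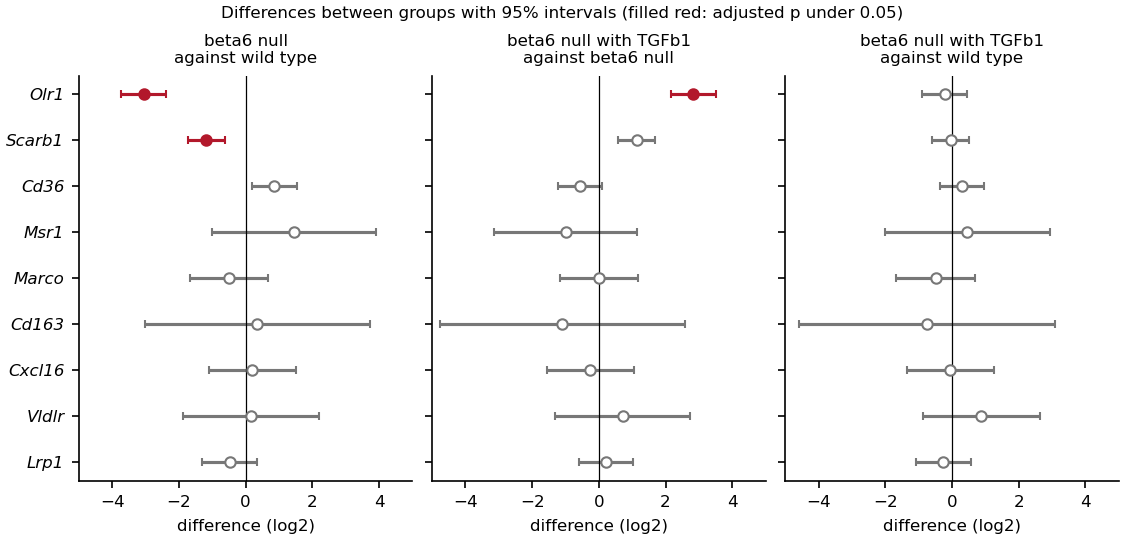
Differences in log2 ratio between groups for the 9 genes, with 95% intervals, for the 3 comparisons. Filled red points have an adjusted p under 0.05: Olr1 and Scarb1 in beta6 null against wild type, and Olr1 with TGFb1 against beta6 null.

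Of 10 other scavenger receptors tested, 0 passed in limma in any comparison, with 2, 4 and 1 at an unadjusted p under 0.05, where all features had 11.5%, 15% and 6.28%. Scarb2, the lysosomal member, differed by -0.92 (limma adjusted p = 0.180) and 0.64 (0.303), and Scara5, a ferritin receptor, by -0.26 and -0.45, in beta6 null against wild type and in TGFb1 against beta6 null. Of 6 other LDL receptor family genes 0 passed, with 0, 1 and 0 unadjusted; Lrp1b differed by -0.87 and 0.77, and Lrp2 by 0.48 and -1.54. Of 13 ligands, partners and adaptors 0 passed, with 1, 5 and 2 unadjusted; the sheddase Adam17 differed by -0.52 and 0.66, and haptoglobin, Hp, by 0.59 and 0.33.

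Lipid handling and its transcription factors held 1 call each. At an unadjusted p under 0.05 in limma, the 11 storage and efflux genes held 5, 4 and 3 in the 3 comparisons. The 11 transcription factors held 1, 1 and 0, and all features 11.5%, 15% and 6.28%. Cidec, a lipid droplet protein, was the 1 of 11 storage and efflux genes that passed: it fell by 1.35 in beta6 null (SE 0.25, limma adjusted p = 0.0216, 4 wild type arrays). With TGFb1 it differed by 0.60 (limma adjusted p = 0.251). The cholesterol exporters Abca1 and Abcg1 differed by -0.02 and -0.99 in beta6 null and by 0.76 and 0.81 with TGFb1, with no call. Pparg, the nuclear receptor that drives alveolar macrophage identity and lipid handling, was the 1 of 11 transcription factors that passed: it rose by 1.84 with TGFb1 against beta6 null (SE 0.35, limma adjusted p = 0.0332). In beta6 null against wild type it differed by -1.14 (limma adjusted p = 0.191). The LXR gene Nr1h3 differed by -0.71 and 0.93, and Rxra by 0.38 and 0.09.

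Among features with a value on all 15 arrays, 5503 named genes were ranked by Pearson's r with Olr1, as a description over arrays in which the beta6 null group stands apart. The 5 most alike were Desi1 (r 0.945), Il18 (0.942), Snrk (0.931), Gdap2 (0.928) and Plscr1 (0.923). With group means subtracted their r was 0.37, 0.48, 0.56, 0.37 and 0.58. The 5 most opposite were Hal (-0.900), St8sia4 (-0.882), Marcks (-0.882), Rbp4 (-0.879) and Nfia (-0.874), with -0.13, -0.29, -0.38, -0.18 and -0.13 after group means were subtracted. Choosing genes by r on these same arrays also pushes their r within groups in the same direction. Olr1 and Scarb1 had r = 0.863 over the 15 arrays and 0.103 within groups, and Olr1 and Cd36 -0.577 and 0.197. Of 10 protein-coding neighbours of Olr1, 5 on each side in order of start position in the GRCm38.p6 annotation, 5 were tested. In beta6 null against wild type Clec7a, the beta-glucan receptor Dectin-1, differed by -1.13 (SE 0.40, limma adjusted p = 0.276), and the other 4 lay above 0: Clec12b at 1.18, Clec1b at 0.995, Klrd1 at 1.06 and Klrk1 at 0.79. With TGFb1 against beta6 null the differences were 1.04 for Clec7a (SE 0.38, limma adjusted p = 0.212), -0.19 for Clec12b, 0.22 for Clec1b, -0.89 for Klrd1 and -1.17 for Klrk1.

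Some markers of cell types differed between the groups too. Of 9 monocyte, interstitial macrophage and dendritic cell markers all 9 lay above 0 in beta6 null against wild type, with a median of 1.04, and their mean over the 3 measured on every array ran from -0.37 to 0.35 in wild type arrays, 0.74 to 1.74 in beta6 null ones and 0.58 to 1.16 with TGFb1. H2-Aa, an MHC class II chain among them, rose by 1.82 in beta6 null against wild type (limma adjusted p = 0.0409). With TGFb1 against beta6 null 7 of these 9 markers lay below 0 and 2 above. Of 8 neutrophil markers 5 lay above 0 and 3 below in beta6 null against wild type, and S100a8 rose by 2.13 (limma adjusted p = 0.00148). With TGFb1 against beta6 null 7 of these 8 lay below 0, S100a8 at -0.93 (limma adjusted p = 0.154). Of 10 lung epithelium markers 6 lay above 0 and 4 below in beta6 null against wild type. Sftpc rose by 2.18 while Epcam and Krt19 fell by 2.34 and 2.01. With TGFb1 against beta6 null Epcam and Krt19 rose by 1.98 and 2.37, while 7 of the 10 markers lay below 0. Of 10 alveolar macrophage markers all lay above 0 with TGFb1 against beta6 null, and Pparg passed. In beta6 null against wild type 3 lay above 0 and 7 below, and with TGFb1 against wild type 8 above and 2 below. The mean of the 8 alveolar macrophage markers measured on every array ran from -1.99 to -0.37 in wild type arrays, -1.73 to -1.51 in beta6 null ones and -0.92 to -0.40 with TGFb1. Of 8 lymphocyte markers 6 lay above 0 and 2 below in beta6 null against wild type, and 0 passed in limma. Of 5 endothelial and fibroblast markers 2 lay above 0 and 3 below, and 0 passed. Over all features 0.949%, 0.708% and 0% passed in the 3 comparisons, and 11.5%, 15% and 6.28% had an unadjusted p under 0.05. Such markers numbered 4, 2 and 2 in the monocyte list, 2, 1 and 2 in neutrophil and 3, 2 and 1 in epithelium. They numbered 4, 7 and 0 in alveolar macrophage, 3, 2 and 0 in lymphocyte and 0, 0 and 0 in endothelium and fibroblast. Mean Xist was -3.10 ± 0.71 for wild type arrays, -0.40 ± 1.48 for beta6 null ones and -3.07 ± 0.49 for those with TGFb1 (SD, n = 5), and in that order the Y-linked Eif2s3y was -0.77 ± 0.92, -1.79 ± 1.30 and -0.48 ± 0.62. Xist differed by 2.69 in beta6 null against wild type, which passed (limma adjusted p = 0.0444). With TGFb1 against beta6 null Xist differed by -2.67 (limma adjusted p = 0.0524). Eif2s3y differed by -1.02 in beta6 null against wild type (limma adjusted p = 0.524) and by 1.32 with TGFb1 against beta6 null (0.312). The Y-linked Kdm5d had too few values to be tested. In the same order it was 0.61 ± 0.69 (SD, n = 2), 0.12 ± 1.57 (n = 5) and 0.62 ± 1.36 (n = 2). The part of these markers in the Olr1 and Scarb1 results was not tested. Xist ran from -4.14 to -2.37 in wild type arrays and from -2.46 to 0.88 in beta6 null ones. The fit with Xist given above therefore cannot fully separate Xist from the groups, and 0 features passed in it.

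**Figure D4:**
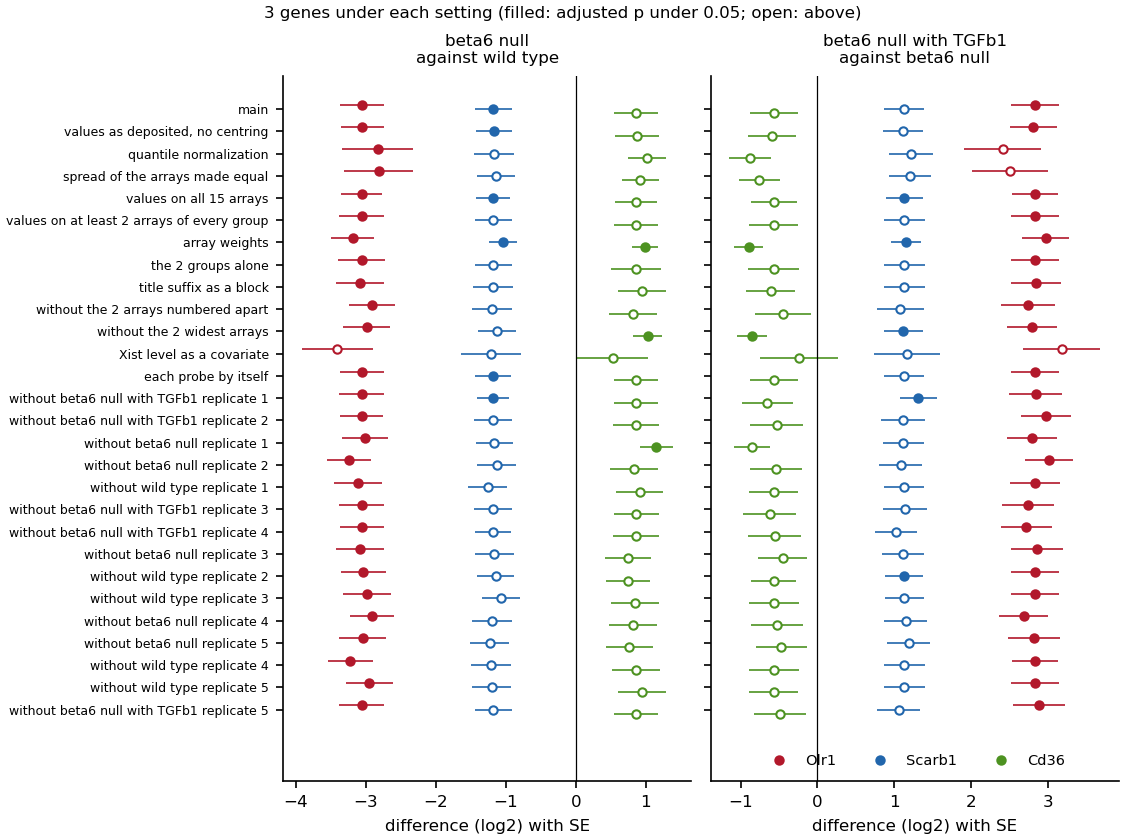
Difference in log2 ratio with its SE for Olr1, Scarb1 and Cd36 under the reported setting and 27 alternatives, filled where the adjusted p is under 0.05. Olr1 passes in 26 of 27 for beta6 null against wild type and in 24 of 27 for TGFb1 against beta6 null. The alternatives are not independent: fits of each probe by itself, or without an array of the group not compared, keep the difference.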

How the data were processed

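The deposited table holds log ratios, read here as log2, of 15 2-colour arrays, each an alveolar macrophage RNA against a common reference, per the labels. Its log base, normalization and filters are not given in the sources used here. Of 17225 probes, 30 control spots were left out. Platform annotation gave 13972 probes 1 symbol, 13 several and 3210 none. For 13869 probes the current symbol was looked up by Entrez ID, whether or not it had changed. Each array was centred on its median, probes of a gene were averaged, and a feature measured on 3 or more arrays of every group was fitted as 3 group means with limma 3.58.1 (R 4.3.3, lmFit and eBayes), with Benjamini-Hochberg adjustment over 13273 features and a threshold of 0.05. On simulated data, changes of 1, 2, 3 and 4 log2 were recovered in 12, 34, 58 and 74% of genes for beta6 null against wild type. The members and gene lists were chosen with earlier results of these data known. The genes named are the 9 receptors, list genes that passed plus up to 2 more per pathway list by number of arrays, and the 5 genes most like and most opposite to Olr1. The tested neighbours of Olr1 were named after their values were seen, and Mmp12, Xist, Eif2s3y and Kdm5d were added as checks. Alternatives covered normalization, filters, blocks, array weights and each array left out. The block was the suffix of the array title, 1 or 2, whose meaning the labels do not give. Suffix 2 was on wild type replicates 3, 4 and 5, beta6 null replicate 5 and TGFb1 replicates 1 and 5. The arrays numbered apart in their titles, 232 and 231, were beta6 null replicate 4 and TGFb1 replicate 5. Both therefore fall unevenly over the groups.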

Additional observations from a re-analysis of the deposited data

Results flagged for a closer look

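Within groups of 4 or 5 values, 5 of 24 combinations of a gene and a group held a value far from the rest by Dixon's test at the 95% level, which chance alone passes in about 5% of groups. All 5 lay on 1 of the 2 widest arrays. On beta6 null replicate 1, Cd36 was lowest at -1.05 (nearest array 0.22), Msr1 was lowest at -1.11 (nearest 1.41) and Marco was highest at -1.50 (nearest -3.66). On wild type replicate 2, Cxcl16 was highest at 3.69 (nearest 1.62) and Lrp1 at 2.35 (nearest 0.30). The cause was not tested.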

How the results depend on the processing

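No member changed sign while past the threshold. Members called between beta6 null and wild type (2) numbered 1 under quantile normalization, equal array spread, the filter of 2 arrays per group, the 2 groups alone, the title suffix as a block and without the 2 arrays numbered apart, 0 with Xist, 3 with array weights, and 1 to 2 with 1 array left out. All features called (126) numbered 75 under quantile normalization, 422 with array weights, 41 in the 2 groups alone, 64 with the suffix block, 78 without the arrays numbered apart, 190 without the 2 widest, 0 with Xist, and 64 to 154 with 1 array left out. For TGFb1 against beta6 null, members (1) numbered 0 under quantile normalization, equal spread and Xist, 2 with values on all 15 arrays, 3 with array weights and without the 2 widest, and 1 to 2 with 1 array left out. All features (94) numbered 15, 22 and 0 there, 220 on all 15 arrays, 621 with weights, 43 with the suffix block, 30 without the arrays numbered apart, 321 without the widest, and 23 (without TGFb1 replicate 4) to 318 (without wild type replicate 2) with 1 array left out. For TGFb1 against wild type, features (0) numbered 1 with weights and 1 in the 2 groups alone, and 0 to 1 with 1 array left out. Olr1 with TGFb1 against beta6 null was 2.42 (limma adjusted p = 0.0794) under quantile normalization and 2.51 (0.0593) with equal spread. The causes were not tested.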

Other observations

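The widest array of each group held the highest Cxcl16 value of that group: 3.69 for wild type, 3.14 for beta6 null and 3.10 for the TGFb1 group. Over the 27 combinations of a gene and a group, the widest array was highest in 10, lowest in 6, between in 7 and without a value in 4. Cxcl16 and Lrp1 had r = 0.784 over 15 arrays after group means were subtracted, and Cxcl16 and Vldlr -0.742 over 13, as descriptions over arrays of unequal spread. Cd163 ran from -3.30 to 2.52 over 3 arrays with TGFb1, where its median was -3.28.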
